A study of Homo sapiens with 16 samples.

Results

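A set of 28 genes of cholesterol synthesis and sterol control was followed through 16 RNA libraries of IMR90 ER:RAS cells. The members were chosen by symbol for their known roles, and comprise 19 enzymes, 5 regulators and 4 genes of sterol transport or sterol response. All 28 were among the 62069 gene identifiers of the count table, and all 28 passed the filter on low counts that left 13526 genes for testing. IMR90 is a line of human lung fibroblasts, and ER:RAS is a RAS oncoprotein joined to the ligand-binding part of the oestrogen receptor, so that 4-hydroxytamoxifen (4OHT) turns it on. The labels name 4 groups of 4 libraries, all from cells carrying the fusion, at passage 15 and day 6. EV was the vector control without 4OHT, called non-senescent (replicates 49 to 52). EV_4OHT was the vector control given 4OHT at 100 nM, called senescent (replicates 53 to 56). The groups shAHCY_2 (replicates 57 to 60) and shAHCY_4 (replicates 61 to 64) received 4OHT and 1 of 2 short hairpin RNAs against AHCY, the enzyme that breaks down S-adenosylhomocysteine. No group without the fusion was given 4OHT, so an effect of the ligand cannot be told apart from that of RAS. The labels do not tie the libraries to separate cultures, so p-values measure the spread between libraries, which may be technical.

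Cholesterol is built from acetyl-CoA through mevalonate and the branch-point isoprenoid farnesyl diphosphate to squalene, which is closed into lanosterol and trimmed to cholesterol. The supply is governed by SREBP transcription factors, which stay in the endoplasmic reticulum with their escort SCAP and the INSIG retention proteins while sterol is plentiful, and move to the Golgi to be cut and released when sterol runs low. When sterol is in excess, oxysterols activate the nuclear receptor LXR, whose targets export cholesterol and reduce its uptake.

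The promoters are shown because many of these genes are known to answer to SREBP together with the CCAAT-binding factor NF-Y, and the 7 printed belong to genes called in the senescence comparison that have a CCAAT match in the stretch shown. They were picked for that match and do not show how common it is. TM7SF2 and MYLIP were also called and have a match in this stretch, but are not printed. The called genes PMVK, CYP51A1, INSIG2, SREBF1, SCAP and ABCA1 had no match in their full windows, and INSIG1 had none in this stretch. Of the 28 genes, 24 matched an entry in the RefSeq promoter table (GRCh38.p14), which runs from 250 bases before to 50 bases after each start. ACAT2, FDFT1, SQLE and ABCG1 had no entry. Each line gives the 150 bases before the start, 5′ to 3′ on the gene's own strand. Capitals mark the sterol regulatory element searched for (TCACNCCAC) and CCAAT or its reverse complement ATTGG. The windows are SREBF2 at chr22:41832955-41833104 (plus strand), HMGCS1 at chr5:43313413-43313562 (minus), MVD at chr16:88663092-88663241 (minus), LSS at chr21:46228775-46228924 (minus), EBP at chrX:48521658-48521807 (plus), STARD4 at chr5:111512536-111512685 (minus) and NSDHL at chrX:152830913-152831062 (plus).
SREBF2: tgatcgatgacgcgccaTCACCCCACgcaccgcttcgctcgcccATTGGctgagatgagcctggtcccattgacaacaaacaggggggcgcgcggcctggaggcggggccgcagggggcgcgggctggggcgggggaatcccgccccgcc
HMGCS1: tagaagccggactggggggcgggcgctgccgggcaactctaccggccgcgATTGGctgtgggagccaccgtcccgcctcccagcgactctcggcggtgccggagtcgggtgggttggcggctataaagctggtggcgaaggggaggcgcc
MVD: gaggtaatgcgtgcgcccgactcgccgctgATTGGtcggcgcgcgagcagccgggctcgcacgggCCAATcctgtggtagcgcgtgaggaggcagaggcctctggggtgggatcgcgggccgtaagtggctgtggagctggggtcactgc
LSS: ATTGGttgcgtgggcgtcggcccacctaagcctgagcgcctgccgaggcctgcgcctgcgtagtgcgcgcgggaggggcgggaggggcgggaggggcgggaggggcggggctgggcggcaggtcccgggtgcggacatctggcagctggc
EBP: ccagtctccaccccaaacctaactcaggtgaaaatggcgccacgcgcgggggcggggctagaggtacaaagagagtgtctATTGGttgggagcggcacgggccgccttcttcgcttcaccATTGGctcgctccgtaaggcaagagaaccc
STARD4: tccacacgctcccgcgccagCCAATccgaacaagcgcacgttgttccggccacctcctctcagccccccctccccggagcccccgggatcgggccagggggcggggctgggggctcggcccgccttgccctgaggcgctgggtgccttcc
NSDHL: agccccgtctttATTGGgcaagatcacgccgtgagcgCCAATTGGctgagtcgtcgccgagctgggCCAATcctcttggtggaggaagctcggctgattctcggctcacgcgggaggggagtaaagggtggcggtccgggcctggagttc

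Over the full windows, searched on both strands, a CCAAT letter match was present in 16 of the 24 promoters (66.7%), against 35.7% of all 27305 promoters in the table and 36.8% of the 10343 that belong to tested genes. NSDHL held 4 such matches in the stretch shown, where a forward and a reverse match share bases in CCAATTGG. The sterol regulatory element was matched in 1 of the 24 promoters, that of SREBF2, where it lay just upstream of a CCAAT match, and in 1.15% of all promoters. The GC box GGGCGG was found in 22 of the 24, against 69.9% of the promoters of tested genes, and the E-box CACGTG in 5 of the 24, against 10.1%. The LXR direct repeat DR4 was matched in 0 of the 24 and in 0.0183% of all promoters. By the senescence comparison described further on, CCAAT matches were present in 7 of 10 promoters of genes that fell, 3 of 6 of genes that rose and 6 of 8 of genes that did not pass the test. These are letter matches, not sites shown to be bound.

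Each library held between 8236199 and 18235787 counts, with 10 counts or more on 11903 to 13530 genes. In the hairpin groups the target AHCY was at 18.5 ± 4.5 CPM (SD, n = 4) with shAHCY_2 and 14.7 ± 2.2 CPM with shAHCY_4, against 164 ± 8.1 CPM in EV_4OHT and 114 ± 11 CPM in EV. All 10 fibroblast markers listed were measured. Their summed level was 10795 to 12456 CPM in the EV libraries and 4923 to 5109 CPM in those of EV_4OHT. It was 5038 to 5540 CPM for shAHCY_2 and 4936 to 5583 CPM for shAHCY_4. Of the 10 markers, 7 fell in EV_4OHT, against 26.8% of all genes tested. Epithelial markers summed to 53.4 ± 4.2 CPM in EV, nearly all KRT19, and to 1.97 to 4.01 CPM in the other groups, with KRT14 at 0 throughout. Endothelial markers summed to at most 2.41 CPM with PECAM1 and CDH5 at 0, and leukocyte markers to at most 1.28 CPM with CD3E at 0. The 10 proliferation genes all fell in EV_4OHT, where 26.8% of all genes tested fell. Their summed level was 1160 to 1290 CPM in the EV libraries and 211 to 235 CPM in those of EV_4OHT. The ranges were 466 to 496 CPM for shAHCY_2 and 451 to 487 CPM for shAHCY_4. The part of these shifts in the values below was not tested, and in bulk RNA fewer cells of a type and less RNA per cell cannot be told apart.

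A pair of libraries stood apart within their groups. In shAHCY_2 replicate 59 and EV replicate 51, genes of low GC content were high and genes of high GC content low. Over the 28 sterol genes the deviation of replicate 59 from the mean of the other shAHCY_2 libraries had a Spearman coefficient of -0.84 with GC content, and that of EV replicate 51 a coefficient of -0.77. Over the 13250 tested genes with a GC value, the deviation was taken from the mean of all 16 libraries, so differences between groups enter it. By that measure the coefficients were -0.54 for replicate 59 and -0.27 for EV replicate 51. They cannot be set directly against those of the 28 genes. On the same measure shAHCY_4 replicate 62 stood about as far the other way as EV replicate 51, at 0.28. These describe genes of 1 library each, all sharing that library's depth. The furthest genes in replicate 59 were ABCA1, SC5D, MSMO1, STARD4 and IDI1, which were high by 1.13, 0.89, 0.62, 0.52 and 0.50 on the log2 scale. Values without these libraries are given for some of the results that rest on them, but not for all.

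**Figure D1:**
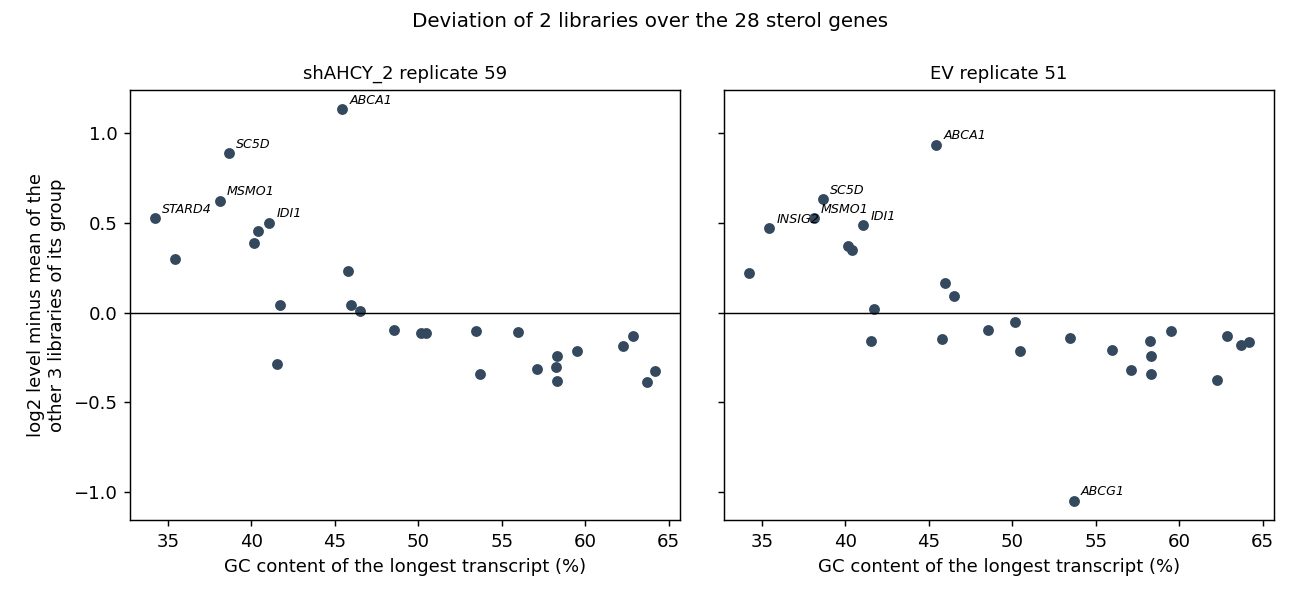
Each point is 1 of the 28 genes; the x axis is the GC content of its longest transcript (%) and the y axis its log2 level in that library minus the mean of the other 3 libraries of the group. In both libraries the points run from high on the left to low on the right; ABCG1 in EV replicate 51 rests on 2 counts.

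Levels are CPM, counts relative to the library total, scaled by TMM factors. Per kilobase of longest transcript, the EV means were highest for the sterol demethylation enzyme MSMO1 at 174 CPM per kb and squalene synthase FDFT1 at 138 CPM per kb. The lowest were the LXR targets MYLIP at 0.206 CPM per kb and ABCG1 at 0.0588 CPM per kb. Every test that follows is edgeR's quasi-likelihood test on counts with Benjamini-Hochberg adjustment over all 13526 genes, and a gene is said to have risen or fallen where its adjusted p was under 0.05.

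Senescent cells were compared with non-senescent cells first. Of the 28 genes, 11 fell and 7 rose, where 26.8% of all genes tested fell and 26.7% rose. The share that rose was thus close to the background. The median log2 difference was -0.22 over the 28 genes and -0.02 over all genes. Of the 19 enzymes, 7 fell, 2 rose and the others did not pass the test. The cholesterol exporters ABCA1 and ABCG1 and MYLIP, which marks the LDL receptor for degradation, all rose. With library totals alone as scaling, the median of all genes moved to -0.13 and the calls over all genes to 2805 higher and 4530 lower, from 3613 and 3626. The split among the 28 genes was then 4 higher and 13 lower. The count of genes that rose was also 4 without EV replicate 49 or without EV_4OHT replicate 55. It went up to 9 with the GC trend of each library removed. With EV replicate 51 and shAHCY_2 replicate 59 both left out it was 10. For these settings the share of all genes is not given.

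**Figure D2:**
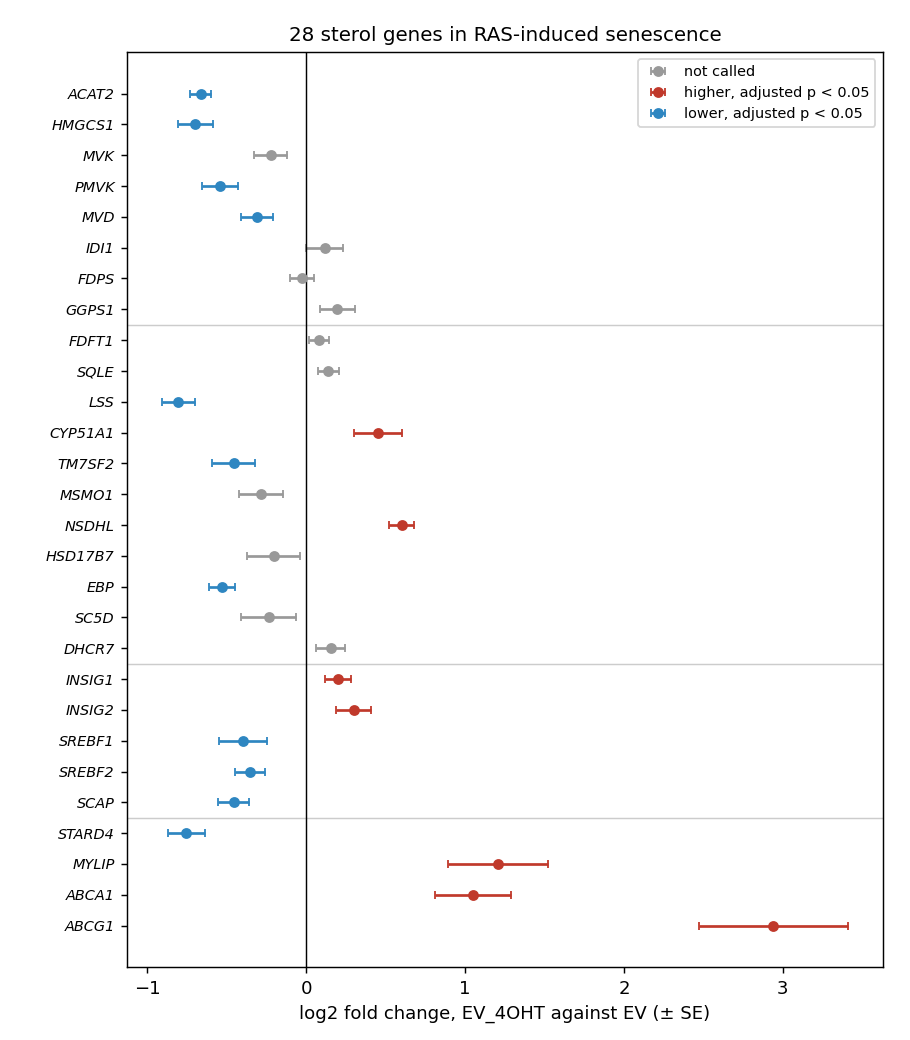
Log2 fold change of EV_4OHT against EV for each of the 28 genes (x axis; bars are ± SE, n = 4 libraries a group), in pathway order from top to bottom with grey lines between the 4 role groups. Red points rose, blue points fell, and grey points did not pass the test; the largest fall was that of LSS and the largest rise that of ABCG1.

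At the head of the route, ACAT2 (ENSG00000120437), the cytosolic thiolase that joins acetyl-CoA units, was at 184, 178, 181 and 202 CPM in EV and at 121, 120, 116 and 113 CPM in EV_4OHT. The groups did not overlap and were far apart for their spread. ACAT2 fell by 0.66 ± 0.07 (SE) on the log2 scale (adjusted p = 2.8e-08). HMGCS1 (ENSG00000112972), which adds the next acetyl-CoA to make HMG-CoA, was at 102, 101, 131 and 101 CPM in EV and at 60.9, 66.8, 67.0 and 73.6 CPM in EV_4OHT. The highest EV library was replicate 51, and every EV library was above every EV_4OHT library. HMGCS1 fell by 0.70 ± 0.11 on the log2 scale (adjusted p = 1.3e-05).

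The next steps phosphorylate and decarboxylate mevalonate. PMVK, phosphomevalonate kinase, was at 32.7, 34.1, 34.1 and 44.0 CPM in EV and 27.0, 26.8, 22.3 and 23.5 CPM in EV_4OHT. It fell by 0.54 ± 0.12 (adjusted p = 0.0004). MVD, the decarboxylase, was at 103, 96.3, 89.9 and 106 CPM in EV and 82.6, 81.4, 80.7 and 74.4 CPM in EV_4OHT, also without overlap, and fell by 0.31 ± 0.10 (adjusted p = 0.014). MVK, the first kinase, had means of 33.0 ± 1.8 and 28.3 ± 3.1 CPM, with overlapping ranges and an adjusted p of 0.078. It was called lower in 7 of 26 alternative analyses, among them those without EV_4OHT replicate 54 (-0.29) or shAHCY_2 replicate 57 (-0.24). From isopentenyl diphosphate to farnesyl and geranylgeranyl diphosphate, none of the listed enzymes passed the test. The log2 differences were 0.11 ± 0.12 for the isomerase IDI1, -0.03 ± 0.08 for the farnesyl diphosphate synthase FDPS and 0.20 ± 0.11 for the geranylgeranyl diphosphate synthase GGPS1. Of these, GGPS1 was called higher in 4 of 26 alternatives, among them those without EV replicate 51 (0.29) or shAHCY_2 replicate 59 (0.20). IDI1 was called higher in 2 of 26, 1 of them with EV replicate 51 and shAHCY_2 replicate 59 both left out (0.24). In GENCODE v29, 41.0% of the exonic bases of GGPS1 are shared with other genes, mostly TBCE on the same strand, so its counts are uncertain.

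Among the squalene and sterol steps, LSS (ENSG00000160285), the synthase that folds squalene epoxide into lanosterol, changed most. It was at 229, 185, 166 and 221 CPM in EV and at 116, 120, 121 and 101 CPM in EV_4OHT. The EV libraries were widely spread, yet the lowest of them was above every EV_4OHT library. LSS fell by 0.81 ± 0.10 (adjusted p = 7.9e-07), to 57.2% of its EV mean. The genes just upstream, FDFT1 and the squalene epoxidase SQLE, had log2 differences of 0.08 ± 0.06 and 0.14 ± 0.07 and did not pass the test. SQLE was at 121, 137, 139 and 133 CPM in EV and 148, 146, 145 and 146 CPM in EV_4OHT, so its ranges did not overlap although its adjusted p was 0.082. It was called higher in 2 of 26 alternatives.

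NSDHL (ENSG00000147383), a dehydrogenase that works with MSMO1 to strip methyl groups from the sterol ring, moved the other way. Its level was 94.4, 87.1, 81.9 and 105 CPM in EV and 147, 142, 134 and 136 CPM in EV_4OHT, with a wide gap between the groups. It rose by 0.60 ± 0.08 (adjusted p = 1.1e-06), to 152% of its EV mean. MSMO1 itself was at 335, 416, 511 and 321 CPM in EV and 313, 316, 313 and 359 CPM in EV_4OHT; the ranges overlapped, the high EV value was that of replicate 51, and the log2 difference was -0.28 ± 0.14 (adjusted p = 0.087). It was called lower in 6 of 26 alternatives, among them those without EV replicate 49 (-0.39) or 52 (-0.37) or shAHCY_2 replicate 59 (-0.28). Over all 26 the difference ran from -0.40 to -0.14. CYP51A1, the lanosterol demethylase, had 43 to 117 counts per library and rose by 0.45 ± 0.15 (adjusted p = 0.016), a call that did not hold without EV replicate 49 (0.38) or 51 (0.40) or EV_4OHT replicate 55 (0.36). In GENCODE v29, 83.2% of its exonic bases are shared with another gene model on the same strand, so its counts are uncertain.

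EBP (ENSG00000147155), the sterol isomerase that shifts the ring double bond, was at 101, 96.8, 92.9 and 111 CPM in EV and 72.7, 73.8, 64.8 and 66.5 CPM in EV_4OHT. The groups were well apart, and EBP fell by 0.53 ± 0.08 (adjusted p = 1.2e-05). The sterol reductase TM7SF2 went from 21.5 ± 1.4 to 15.6 ± 2.1 CPM, without overlap, and fell by 0.46 ± 0.13 (adjusted p = 0.0067). The remaining late enzymes did not pass the test. Their log2 differences were -0.21 ± 0.16 for the ketosteroid reductase HSD17B7, -0.24 ± 0.17 for the desaturase SC5D and 0.15 ± 0.09 for the reductase DHCR7.

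Of the regulators, 3 of 5 fell and 2 of 5 rose, where 26.8% of all genes tested fell and 26.7% rose. SREBF2 (ENSG00000198911) encodes SREBP-2, the factor chiefly known for driving cholesterol genes. It was at 111, 97.6, 83.7 and 105 CPM in EV and 77.5, 86.2, 75.5 and 71.1 CPM in EV_4OHT; EV replicate 51 lay below the highest EV_4OHT library. SREBF2 fell by 0.36 ± 0.09 (adjusted p = 0.0029). SCAP, the escort that carries SREBPs to the Golgi, was at 53.3, 54.6, 40.0 and 47.8 CPM in EV and 37.9, 34.7, 34.8 and 35.0 CPM in EV_4OHT. Its ranges did not overlap, and it fell by 0.46 ± 0.10 (adjusted p = 0.00046). SREBF1, whose product SREBP-1 is better known for fatty acid genes, went from 11.2 to 12.9 CPM in EV to 6.68 to 10.9 CPM in EV_4OHT and fell by 0.40 ± 0.15 (adjusted p = 0.031). This call was lost on leaving out EV replicate 52 (-0.36) or EV_4OHT replicate 54 (-0.28) or 56 (-0.39).

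The retention proteins rose by small amounts. INSIG1, itself a known SREBP target, was at 125, 126, 148 and 147 CPM in EV and 159, 150, 165 and 153 CPM in EV_4OHT, a narrow gap. It rose by 0.20 ± 0.08 (adjusted p = 0.041). INSIG2 was at 36.1, 30.2, 45.8 and 33.2 CPM in EV and 42.3, 46.2, 43.6 and 46.8 CPM in EV_4OHT, where EV replicate 51 overlapped the other group, and rose by 0.30 ± 0.11 (adjusted p = 0.026). Neither call was firm. The INSIG1 call was missed in 14 of 26 alternative analyses (0.09 to 0.24 on the log2 scale over all 26) and the INSIG2 call in 12 of 26 (0.19 to 0.44). Among single libraries, INSIG1 lost its call without EV replicate 49 or 50, EV_4OHT replicate 53, 55 or 56, shAHCY_2 replicate 57, 58 or 60, or shAHCY_4 replicate 64. INSIG2 lost its call without EV replicate 49, 50 or 52, EV_4OHT replicate 54, 55 or 56, or any of the same shAHCY_2 and shAHCY_4 libraries.

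Of the 4 genes of sterol transport and the LXR response, 1 fell and 3 rose, against 26.8% and 26.7% of all genes. STARD4 (ENSG00000164211), a soluble carrier of cholesterol between membranes and a known SREBP target, was at 111, 121, 128 and 97.9 CPM in EV and 62.5, 66.5, 71.3 and 70.4 CPM in EV_4OHT. It fell by 0.76 ± 0.12 (adjusted p = 9.3e-06), with no overlap. ABCA1 (ENSG00000165029), which exports cholesterol to apolipoproteins and is a classical LXR target, was at 66.6, 99, 144 and 64.6 CPM in EV and 163, 191, 187 and 234 CPM in EV_4OHT. The highest EV library was again replicate 51. ABCA1 rose by 1.05 ± 0.24 (adjusted p = 0.00085), and by 1.33 with EV replicate 51 and shAHCY_2 replicate 59 left out. ABCG1, an exporter to lipoprotein particles and another LXR target, had 2, 5, 2 and 4 counts in EV and 16, 17, 18 and 33 in EV_4OHT. Its log2 difference was 2.94 ± 0.47 (adjusted p = 1.7e-05), and with counts this low the size of the rise is loosely set (95% interval 2.02 to 3.87). MYLIP, a ubiquitin ligase that directs lipoprotein receptors to degradation, had 11, 7, 10 and 10 counts in EV and 16, 16, 16 and 23 in EV_4OHT and rose by 1.21 ± 0.32 (adjusted p = 0.0027).

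**Figure D3:**
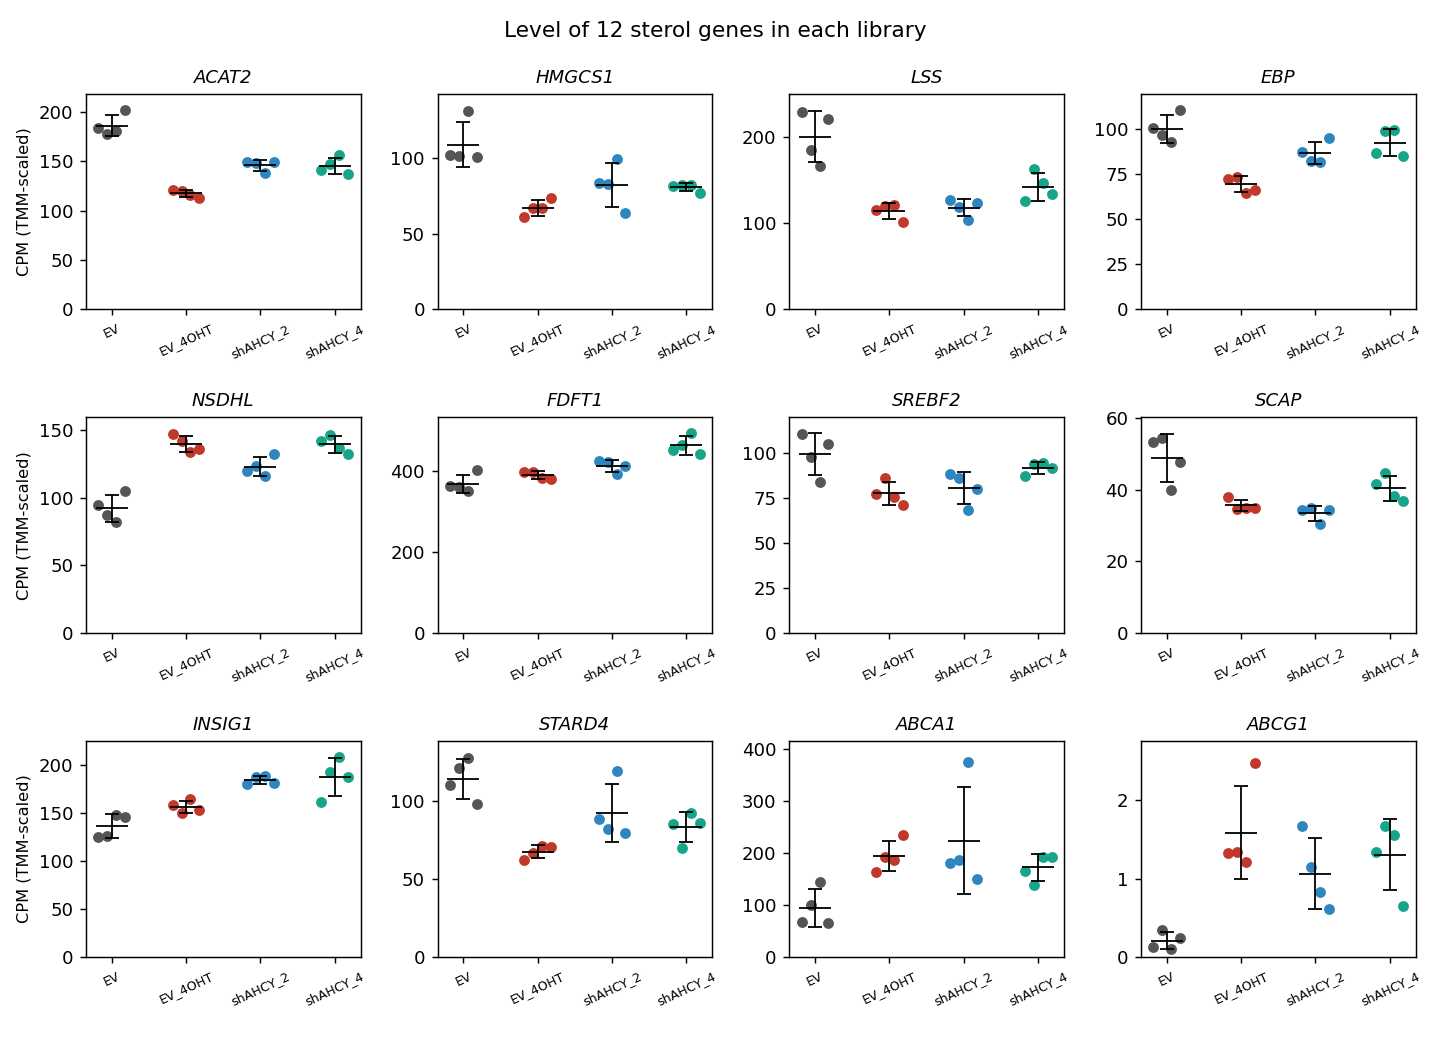
Level of 12 of the genes in each library (y axis, CPM scaled by TMM factors, starting at 0; x axis, the 4 groups), with points for libraries and lines for the mean ± SD (n = 4). ACAT2, HMGCS1, LSS, EBP and STARD4 are high in EV and low in EV_4OHT, NSDHL, ABCA1 and ABCG1 the reverse, and ACAT2 and EBP are higher with either hairpin than in EV_4OHT.

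The hairpin groups were each compared with EV_4OHT, which asks how RAS-activated cells with a hairpin against AHCY differed from those with the vector. No group carried a hairpin not aimed at AHCY, so an effect of hairpins in general cannot be told apart from AHCY knockdown. Both comparisons use the same EV_4OHT libraries, so their values are set side by side and are not independent of each other or of the senescence comparison. With shAHCY_2, 4 of 28 genes rose, against 3.91% of all genes tested. None fell by edgeR at an adjusted p under 0.05, against 3.07% of all genes, and 2 were lower at an unadjusted p under 0.05, against 10.0% of all genes; DESeq2 and limma-voom called 0 lower as well. With shAHCY_4, 6 of 28 rose, against 7.58% of all genes. None fell, against 6.86%, with 0 lower at an unadjusted p under 0.05 (13.2% of all genes) and 0 by DESeq2 or limma-voom. The median log2 difference over the 28 genes was 0.08 with shAHCY_2 and 0.17 with shAHCY_4, and 0.01 over all genes in each.

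ACAT2 and EBP rose with both hairpins. ACAT2 was at 149, 148, 138 and 149 CPM with shAHCY_2 and 141, 147, 156 and 137 CPM with shAHCY_4. All 8 libraries lay above the 4 EV_4OHT libraries (113 to 121 CPM) and below the 4 EV libraries (178 to 202 CPM). The log2 difference from EV_4OHT was 0.32 ± 0.07 with shAHCY_2 (adjusted p = 0.0051) and 0.31 ± 0.07 with shAHCY_4 (adjusted p = 0.0036), and both calls held in each of 26 alternatives. In GENCODE v29, 52.3% of the exonic bases of ACAT2 overlap genes on the opposite strand, among them SOD2 and TCP1. The counts cannot be assigned by strand, so its values carry that uncertainty.

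EBP was at 87.6, 82.2, 82.0 and 95 CPM with shAHCY_2 and 86.9, 98.8, 99.4 and 85.4 CPM with shAHCY_4. These ranges were clear of EV_4OHT, whose highest library was at 73.8 CPM. EBP rose by 0.32 ± 0.08 with shAHCY_2 (adjusted p = 0.020) and by 0.42 ± 0.08 with shAHCY_4 (adjusted p = 0.0014). The shAHCY_2 call was lost without EV_4OHT replicate 55 (0.29) or 56 (0.30) or shAHCY_2 replicate 60 (0.27), whereas the shAHCY_4 call held in each of 26 alternatives.

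Each remaining call was made with 1 hairpin. STARD4 was at 88.4, 81.9, 120 and 79.4 CPM with shAHCY_2, all above EV_4OHT, and rose by 0.44 ± 0.12 (adjusted p = 0.022). The value of 120 CPM belongs to replicate 59, without which the difference was 0.30 and was not called; it was also lost without EV_4OHT replicate 53 (0.41) or 54 (0.44). With shAHCY_4, STARD4 was at 85.4, 70.1, 92.2 and 86.3 CPM, a difference of 0.30 ± 0.12 (adjusted p = 0.089). It was called in 5 of 26 alternatives, among them that without shAHCY_2 replicate 59. HSD17B7 had means of 9.48 ± 0.85 CPM with shAHCY_2 and 6.45 ± 1.7 CPM in EV_4OHT and rose by 0.55 ± 0.17 (adjusted p = 0.048). That call was lost in 16 of 26 alternatives, and among the single libraries it held only without EV replicate 49 or 51, EV_4OHT replicate 54 or shAHCY_2 replicate 60. Counts on pseudogene copies of HSD17B7 amounted to 8.93% of its own.

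With shAHCY_4, FDFT1 was at 450, 464, 494 and 440 CPM, above the EV_4OHT libraries at 397, 397, 381 and 379 CPM. It rose by 0.25 ± 0.06 (adjusted p = 0.010) and lost its call without shAHCY_4 replicate 63 (0.21). LSS was at 125, 163, 147 and 134 CPM, again clear of EV_4OHT, and rose by 0.31 ± 0.10 (adjusted p = 0.045), a call lost without EV_4OHT replicate 53 (0.31), 54 (0.33) or 56 (0.25) or shAHCY_4 replicate 62 (0.24) or 63 (0.29). TM7SF2 was at 16.9, 19.2, 26.9 and 23.3 CPM, overlapping EV_4OHT at its lower end, and rose by 0.48 ± 0.14 (adjusted p = 0.021), a call lost without shAHCY_4 replicate 63 (0.35) or 64 (0.45) or EV_4OHT replicate 54 or 55 (0.43 each). INSIG1 was at 161, 193, 208 and 188 CPM, overlapping EV_4OHT through its lowest library, and rose by 0.26 ± 0.08 (adjusted p = 0.031), a call lost without EV_4OHT replicate 53, 54 or 56 or shAHCY_4 replicate 62, 63 or 64 (0.20 to 0.27). The 6 rises with shAHCY_4 were of 1.19- to 1.39-fold.

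Several genes came near the threshold with shAHCY_4. DHCR7 was at 226, 240, 260 and 225 CPM against 209, 192, 202 and 187 CPM in EV_4OHT, without overlap, and differed by 0.27 ± 0.09 (adjusted p = 0.053). It was called higher in 11 of 26 alternatives, DESeq2 and limma-voom among them. SREBF2 was at 87.4, 94.0, 94.8 and 91.6 CPM, above EV_4OHT in every library, with a difference of 0.25 ± 0.09 (adjusted p = 0.087). It was called higher in 6 of 26 alternatives, among them those without EV replicate 51 or shAHCY_2 replicate 59. HMGCS1 was at 81.2, 82.2, 82.3 and 76.7 CPM, also above EV_4OHT, with a difference of 0.26 ± 0.11 (adjusted p = 0.12). It was called higher in 4 of 26 alternatives. With shAHCY_2 it was at 83.6, 82.7, 99.2 and 63.4 CPM, a difference of 0.29 ± 0.11 (adjusted p = 0.12). The highest value belongs to replicate 59, and replicate 60 lay within EV_4OHT. Without replicate 60 the difference of 0.40 was called, the 1 call in 26 alternatives, which ran from 0.19 to 0.40. In all, 13 of 28 genes were higher at an unadjusted p under 0.05 with shAHCY_4, against 14.4% of all genes, and 7 of 28 with shAHCY_2, against 11.8%. The count of calls with shAHCY_4 moved from 6 to 10 with library totals alone, a scaling under which the calls over all genes were 1441 higher and 697 lower, from 1025 and 928. It was 11 with the GC trend of each library removed, and 11 with EV replicate 51 and shAHCY_2 replicate 59 left out. Leaving out EV_4OHT replicate 54 gave 3, and leaving out shAHCY_4 replicate 63 gave 2. For shAHCY_2 the count was 2 without EV_4OHT replicate 53, 55 or 56 or shAHCY_2 replicate 59. There, library totals alone gave 722 higher and 312 lower over all genes, from 529 and 415. For the settings with the GC trend removed or libraries left out, the share of all genes is not given.

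**Figure D4:**
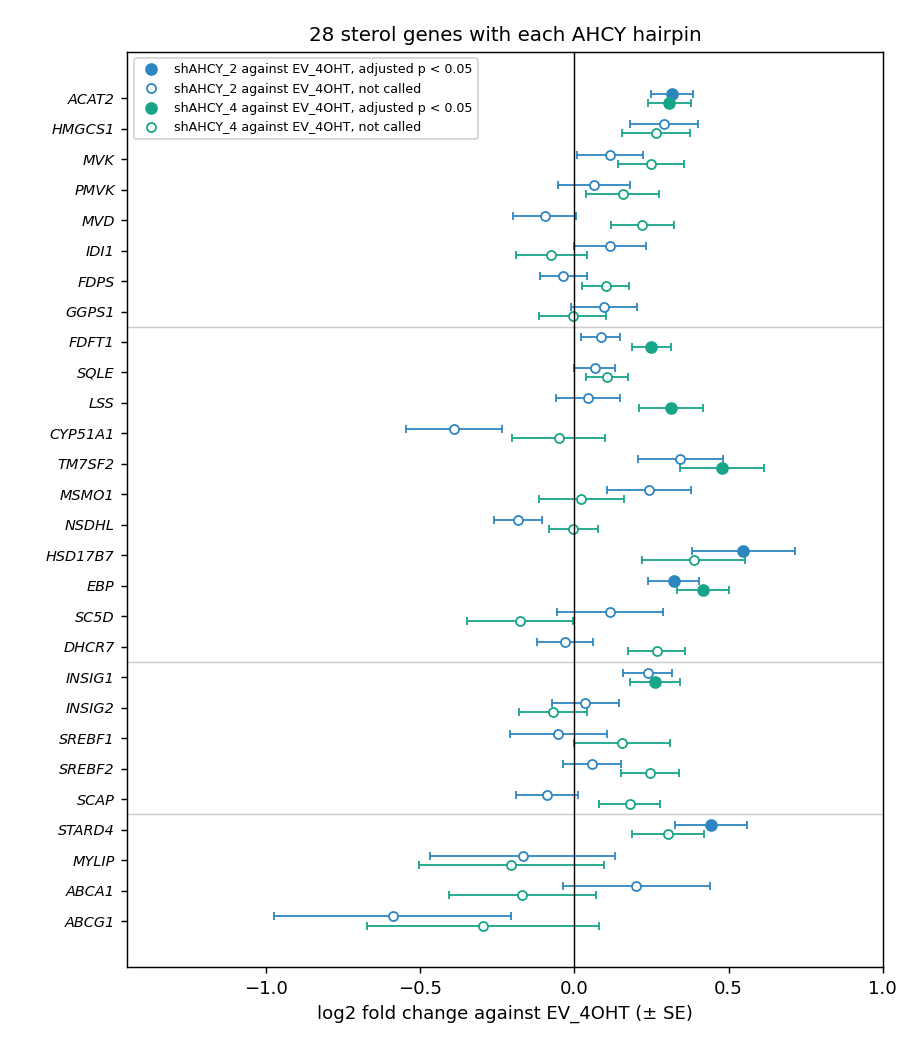
Log2 fold change against EV_4OHT for each of the 28 genes with shAHCY_2 (blue) and shAHCY_4 (green), with bars of ± SE (n = 4 libraries a group) and grey lines between the role groups. Filled points passed the test; the 4 filled blue and 6 filled green points all lie to the right of 0.

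The genes that rose in senescent cells did not pass the test with either hairpin, apart from INSIG1 with shAHCY_4. NSDHL was at 120, 124, 116 and 132 CPM with shAHCY_2, below every EV_4OHT library, but the difference of -0.18 ± 0.08 was not called (adjusted p = 0.17). With shAHCY_4 its difference was -0.00 ± 0.08 (95% interval -0.16 to 0.15). ABCA1 was at 181, 187, 376 and 149 CPM with shAHCY_2, where the high value is replicate 59, and at 166, 139, 193 and 192 CPM with shAHCY_4. Its differences of 0.20 ± 0.24 and -0.17 ± 0.24 had 95% intervals of -0.26 to 0.67 and -0.63 to 0.30; without replicate 59 the first became -0.17. ABCG1 had 8 to 18 counts with shAHCY_2 and 10 to 21 with shAHCY_4, and its differences of -0.59 ± 0.39 and -0.30 ± 0.38 did not pass the test. MYLIP differed by -0.17 ± 0.30 and -0.20 ± 0.30. SCAP, which had fallen in senescence, was at 34.2, 34.8, 30.3 and 34.2 CPM with shAHCY_2 and 41.6, 44.8, 38.2 and 36.8 CPM with shAHCY_4, differences of -0.09 ± 0.10 and 0.18 ± 0.10 that were not called.

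The difference between the hairpins was tested directly. Of the 28 genes, edgeR called 0 higher and 0 lower in shAHCY_4 against shAHCY_2, where 0.540% of all genes were higher and 0.702% lower. At an unadjusted p under 0.05, 7 of 28 were higher and 0 lower, against 8.80% and 9.13% of all genes, and DESeq2 and limma-voom called 0 in either direction. For ACAT2 the difference was -0.01 ± 0.07 (95% interval -0.14 to 0.13), and for EBP it was 0.10 ± 0.08 (-0.07 to 0.26). Wider differences that did not pass the test were 0.30 ± 0.09 for DHCR7 (0.12 to 0.48, adjusted p = 0.10), 0.32 ± 0.10 for MVD (0.12 to 0.52, adjusted p = 0.12), 0.34 ± 0.16 for CYP51A1 (0.03 to 0.65) and -0.37 ± 0.24 for ABCA1 (-0.84 to 0.10). The ABCA1 value rested on shAHCY_2 replicate 59, without which it was -0.0035, and it was 0.0049 with EV replicate 51 left out as well. MVD was called higher without shAHCY_4 replicate 61 (0.41). DHCR7 did not overlap between the hairpin groups, since its shAHCY_2 libraries were at 219, 194, 158 and 204 CPM. Nor did FDFT1, with at most 424 CPM for shAHCY_2 and at least 440 CPM for shAHCY_4. SCAP likewise had at most 34.8 CPM for shAHCY_2 and at least 36.8 CPM for shAHCY_4. Thus a gene called with 1 hairpin alone, such as LSS, FDFT1 or STARD4, was not shown by the test to differ between the hairpins.

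Genes around the pathway were counted from lists. Fatty acid synthesis and desaturation, the other SREBP branch, had 12 measured genes, of which 5 rose and 5 fell in senescence, against 26.7% and 26.8% of all genes. The desaturase FADS2 fell by 0.62 ± 0.09 and the acetyl-CoA synthetase ACSS2 by 0.68 ± 0.11, while the desaturase FADS1 and the acyl-CoA synthetase ACSL3 each rose by 0.51 ± 0.07. With shAHCY_2, 1 of 12 rose, against 3.91% of all genes: the stearoyl-CoA desaturase SCD (0.28 ± 0.06, adjusted p = 0.0074). With shAHCY_4, 4 of 12 rose, against 7.58% of all genes: SCD (0.42 ± 0.06, adjusted p = 6e-05), FADS2 (0.31 ± 0.09), ACSL3 (0.23 ± 0.07) and the phosphatidate phosphatase LPIN1 (0.23 ± 0.07). SCD and LPIN1 fell outside the naming rule and were named after their values were seen. SCD had fallen in senescence by 0.31 ± 0.06 (adjusted p = 0.00021). None of the 12 fell with either hairpin by edgeR, against 3.07% of all genes with shAHCY_2 and 6.86% with shAHCY_4. At an unadjusted p under 0.05, 2 were lower with shAHCY_2 (10.0% of all genes) and 0 with shAHCY_4 (13.2%).

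Sterol uptake, lysosomal exit and storage included a pair of genes with wide shifts in opposite directions. Of its 14 genes, 4 rose (28.6%) and 3 fell (21.4%) in senescence, shares near those of all genes (26.7% and 26.8%). NPC1, which moves cholesterol out of lysosomes, was at 31.0 ± 8.6 CPM in EV and 177 ± 14 CPM in EV_4OHT and rose by 2.52 ± 0.15 (adjusted p = 2.9e-12). It stood at 116 ± 18 and 110 ± 11 CPM with shAHCY_2 and shAHCY_4, a fall of 0.61 ± 0.14 (adjusted p = 0.0081) and of 0.69 ± 0.14 (adjusted p = 0.0018) from EV_4OHT. TMEM97, a sterol-responsive binding partner of NPC1, was the reverse: 51.3 ± 4.2 CPM in EV against 22.0 ± 2.3 CPM in EV_4OHT, then 37.7 ± 1.9 CPM for shAHCY_2 and 47.2 ± 3.9 CPM for shAHCY_4. It fell by 1.22 ± 0.09 in senescence and rose by 0.78 ± 0.10 and 1.10 ± 0.10 with the hairpins (adjusted p = 3e-10, 1e-05 and 3.7e-08). The lipoprotein receptor SCARB1 rose by 0.98 ± 0.11 and the sterol carrier STARD3 by 0.46 ± 0.10 in senescence. NPC2, the soluble partner of NPC1, fell with shAHCY_2 (-0.30 ± 0.08) and shAHCY_4 (-0.38 ± 0.08). VLDLR, a lipoprotein receptor, fell with shAHCY_4 (-0.90 ± 0.20). It was the 1 gene of the 14 called between hairpins (-0.94 ± 0.20, adjusted p = 0.020), where 0.540% of all genes were higher and 0.702% lower. NPC2 and VLDLR were named after their values were seen.

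Among LXR receptors, further LXR targets and oxysterol enzymes, 9 of 11 listed genes could be tested, and in senescence 1 rose and 4 fell, against 26.7% and 26.8% of all genes, with a median log2 difference of -0.34 (-0.02 over all genes). The phospholipid transfer protein PLTP, another LXR target, fell by 1.16 ± 0.11 (adjusted p = 5.5e-09), and the LXR-alpha gene NR1H3 fell by 0.59 ± 0.16 (adjusted p = 0.0036). The LXR-beta gene NR1H2 rose by 0.52 ± 0.10 (adjusted p = 0.00011), and its partner RXRB fell by 0.54 ± 0.13. With shAHCY_2 none of the 9 was called by edgeR, where 3.91% of all genes rose and 3.07% fell. None reached an unadjusted p under 0.05 either, against 11.8% of all genes higher and 10.0% lower. With shAHCY_4, RXRB rose by 0.43 ± 0.13 and NR1H3 by 0.55 ± 0.16 (adjusted p = 0.030 and 0.026), which is 2 of 9 against 7.58% of all genes. None of the 9 fell by edgeR, against 6.86% of all genes, and 1 was lower at an unadjusted p under 0.05, against 13.2%.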

How the data were processed

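RNA was extracted with Trizol and a silica-column kit and made into Smart-Seq2 libraries, a full-length cDNA method that does not mark strand, per the labels' protocols. Per the submitters' processing notes, the tools were CASAVA 1.8.2, TopHat2 2.0.11 and featureCounts 1.18.0, on hg19 (GRCh37); for the annotation release, strand setting and multi-mapping rule, no statement was found in the sources used here. The authors deposited whole-number counts per Ensembl gene, not normalized. Of 62069 identifiers, 50127 matched a symbol, and the rest held 0.503% of counts.

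The counts were tested with edgeR 4.0.16 in R 4.3.3: filterByExpr (13526 genes kept), TMM factors, 1 quasi-likelihood model of all 16 libraries with a mean per group, two-sided tests and Benjamini-Hochberg adjustment over all genes tested, with a threshold of 0.05. The biological coefficient of variation was 11.9%. SE is the absolute log2 difference over the square root of F, and 95% intervals come from it. The script was tested on simulated counts. Within-group pairs of libraries differed by a chi-square per degree of freedom of 3.04 to 32.3, so each library counted as 1 sample.

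Alternatives were RLE and upper-quartile factors, library totals alone, DESeq2 1.42.0, limma-voom (limma 3.58.1), no low-count filter, 10 counts in 8 libraries, only the groups compared, each library's GC trend removed, and each library left out in turn; leaving out EV replicate 51 and shAHCY_2 replicate 59 together was added after seeing the data. The members and gene lists were chosen with earlier results of these data known. Named genes are all 28 members, AHCY and up to 4 genes per surrounding list with the smallest adjusted p in senescence. A few genes of the surrounding lists are not reported here and were left out of those lists' counts and medians, but not out of the tests. Exon overlap, length and GC content came from GENCODE v29 and promoters from RefSeq, both on GRCh38 rather than the build of the counts.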

Additional observations from a re-analysis of the deposited data

Results flagged for a closer look

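Within groups of 4 libraries, 11 of 112 gene and group pairs had 1 library whose gap to the nearest other divided by the group's range exceeded Dixon's 95% limit, where chance gives about 1 in 20. Of these, 6 were shAHCY_2 replicate 59: ACAT2 was lowest there at 138 CPM, IDI1 highest at 445, MSMO1 highest at 522, SC5D highest at 275, SCAP lowest at 30.3 and ABCA1 highest at 376 CPM. In EV, HMGCS1 was highest in replicate 51 at 131 CPM and PMVK highest in replicate 52 at 44.0 CPM. In EV_4OHT, MSMO1 was highest in replicate 56 at 359 CPM, ABCG1 highest in replicate 56 at 2.48 CPM and SCAP highest in replicate 53 at 37.9 CPM.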

How the results depend on the processing

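No paired analysis was possible because no replicate number is shared between groups. In senescence 7 genes rose (4 with library totals alone, 4 to 8 on leaving out each library) and 11 fell (10 to 12). With shAHCY_2, 4 rose (2 to 4). With shAHCY_4, 6 rose: 10 with library totals alone, 11 with the groups compared alone, 11 with the GC trend removed, 11 with EV replicate 51 and shAHCY_2 replicate 59 both left out, and 2 to 9 on leaving out each library; 0 fell, against 1 with the groups compared alone (SC5D, -0.18). Between hairpins 0 were higher, against 2 with the GC trend removed (DHCR7 0.22, MVD 0.23) and 0 to 1 on leaving out each library; 0 were lower, against 1 without the low-count filter (ABCA1, -0.37). Apart from library totals alone, the share of all genes called under these settings is not given. The cause was not tested.

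No called value of the 28 genes changed sign in any alternative run. Uncalled log2 values did. With library totals alone, FDFT1 in senescence was -0.032; with shAHCY_2, FDPS was 0.0017 and DHCR7 0.0083; with shAHCY_4, GGPS1 was 0.049, CYP51A1 0.0039 and NSDHL 0.052. With the GC trend removed, shAHCY_2 gave FDPS 0.031, SC5D -0.024, DHCR7 0.039, INSIG2 -0.12 and SREBF1 0.029, and shAHCY_4 gave NSDHL 0.0068. With EV replicate 51 and shAHCY_2 replicate 59 both left out, shAHCY_2 gave IDI1 -0.023, GGPS1 -0.026, SC5D -0.15, DHCR7 0.058, INSIG2 -0.040 and ABCA1 -0.17, shAHCY_4 gave NSDHL 0.0028, and ABCA1 between hairpins was 0.0049. On leaving out each library, FDPS in senescence ran from -0.084 to 0.036. With shAHCY_2, IDI1 ran from -0.027 to 0.17, GGPS1 from -0.030 to 0.16, LSS from -0.010 to 0.10, SC5D from -0.16 to 0.21, DHCR7 from -0.094 to 0.054, INSIG2 from -0.044 to 0.072, SREBF1 from -0.17 to 0.054 and ABCA1 from -0.17 to 0.35. With shAHCY_4, GGPS1 ran from -0.039 to 0.040, CYP51A1 from -0.11 to 0.024, MSMO1 from -0.037 to 0.069 and NSDHL from -0.034 to 0.029. Depth limits MYLIP (7 to 23 counts per library), ABCG1 (2 to 33) and CYP51A1 (43 to 117).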

Other observations

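Genes that use the isoprenoids made midway along the route were counted apart. Of 11 such genes, 4 rose and 1 fell in senescence, where 26.7% of all genes rose and 26.8% fell. The median log2 difference was 0.26, and -0.02 over all genes. PDSS2, a subunit of the enzyme that builds the ubiquinone side chain, rose by 0.46 ± 0.11 (edgeR's adjusted p = 0.0013). RABGGTA and RABGGTB, subunits of the transferase that attaches geranylgeranyl groups to Rab proteins, rose by 0.39 ± 0.11 and 0.32 ± 0.10 (adjusted p = 0.0066 and 0.0071), while ICMT, which methylates prenylated proteins, fell by 0.23 ± 0.06 (adjusted p = 0.0052). None of the 11 was called with either hairpin by edgeR. Of all genes, 3.91% rose and 3.07% fell with shAHCY_2, and 7.58% rose and 6.86% fell with shAHCY_4. At an unadjusted p under 0.05, 1 was higher and 1 lower with shAHCY_2, against 11.8% and 10.0% of all genes. With shAHCY_4, 3 were higher and 1 lower at that threshold, against 14.4% and 13.2%.

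Of 10 genes for the proteases that cut SREBPs and for the sterol-regulated degradation machinery of the endoplasmic reticulum, 3 rose (30%) and none fell in senescence by edgeR, and the share that rose was near the 26.7% of all genes. At an unadjusted p under 0.05, 1 of the 10 was lower, against 29.5% of all genes. UFD1 and FAF2, which help extract proteins for degradation, rose by 0.49 ± 0.07 and 0.56 ± 0.08 (edgeR's adjusted p = 7.3e-06 for each), and the ubiquitin-conjugating enzyme UBE2G2 by 0.46 ± 0.07 (adjusted p = 9.4e-06). The ubiquitin ligase gene RNF145 had a difference of -0.24 ± 0.11 (adjusted p = 0.057). The protease genes MBTPS1 and MBTPS2 had differences of -0.06 ± 0.07 and -0.14 ± 0.10 and did not pass the test. With each hairpin 0 of 10 were called by edgeR. Of all genes, 3.91% rose and 3.07% fell with shAHCY_2, and 7.58% rose and 6.86% fell with shAHCY_4. At an unadjusted p under 0.05, 1 of 10 was higher with each hairpin. The shares of all genes higher at that threshold were 11.8% with shAHCY_2 and 14.4% with shAHCY_4.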
